A study of Mus musculus with 8 samples.

Results

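The genes described here encode the ligand TGF-beta1 (Tgfb1), its receptors (Tgfbr1, Tgfbr2, Tgfbr3), the Smad proteins that carry its signal (Smad2, Smad3, Smad4) and inhibitors of that signal (Smad7, Ski, Skil). They were listed by name and found through the platform annotation, and each of the 10 was represented by 1 probe set, out of 29915 genes and 30294 probe sets that carried a single gene symbol. The arrays measured RNA of long-term haematopoietic stem cells (LT-HSC), which renew the blood for life, sorted from mouse bone marrow by the absence of Lin, Flk2 and CD48 and the presence of cKit, Sca and CD150. The 4 groups, with 2 arrays each, were CD169DTR/+ mice given 2 Gy, CD169DTR/+ mice not irradiated, wild-type (WT) mice given 2 Gy and WT mice not irradiated. CD169DTR/+ mice carry 1 copy of the diphtheria toxin receptor in the gene of CD169 (Siglec1), a receptor of marrow macrophages, so that the toxin depletes CD169+ macrophages. All 4 groups, WT included, were injected with the toxin 72 hours before total body irradiation of 2 Gy or sham irradiation, and LT-HSC were taken 5 days after it. The labels give neither the age nor the number of mice behind an array, and they do not say whether mice were pooled. The replicates of a group came from distinct experiments per the design text.

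TGF-beta1 is secreted in a latent form and binds, once activated, to the type II receptor Tgfbr2, which then phosphorylates the type I receptor Tgfbr1. Tgfbr1 phosphorylates Smad2 and Smad3, which enter the nucleus with Smad4 and bind DNA, while Smad7 blocks the receptor and Ski and Skil (SnoN) repress transcription together with the Smads. In bone marrow TGF-beta is known for holding haematopoietic stem cells in quiescence.

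The stretches of 250 bases before the start of 4 of these genes are shown because Tgfb1, Tgfbr1, Tgfbr2 and Smad3 had an unadjusted p under 0.05 in at least 1 comparison given further on, as did Smad4, whose window is not shown. They are RefSeq sequences of GRCm38.p6, 5′ to 3′ on the strand of the gene, and capitals mark the letters GGGCGG (a GC box, the core bound by Sp1) or CAGAC (the half-site known for Smad proteins) on either strand.
Tgfb1 (chr7:25686752-25687001, plus strand): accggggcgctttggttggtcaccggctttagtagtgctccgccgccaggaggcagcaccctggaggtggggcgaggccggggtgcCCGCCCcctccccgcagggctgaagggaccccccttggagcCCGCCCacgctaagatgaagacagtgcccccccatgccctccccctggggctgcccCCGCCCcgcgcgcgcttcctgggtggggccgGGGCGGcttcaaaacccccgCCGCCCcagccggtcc
Tgfbr1 (chr4:47352972-47353221, plus strand): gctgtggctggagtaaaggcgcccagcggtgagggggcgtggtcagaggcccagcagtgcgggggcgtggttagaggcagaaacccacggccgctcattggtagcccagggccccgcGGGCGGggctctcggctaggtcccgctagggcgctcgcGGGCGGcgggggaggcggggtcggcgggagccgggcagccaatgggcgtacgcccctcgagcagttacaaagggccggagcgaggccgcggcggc
Tgfbr2 (chr9:116175364-116175613, minus strand): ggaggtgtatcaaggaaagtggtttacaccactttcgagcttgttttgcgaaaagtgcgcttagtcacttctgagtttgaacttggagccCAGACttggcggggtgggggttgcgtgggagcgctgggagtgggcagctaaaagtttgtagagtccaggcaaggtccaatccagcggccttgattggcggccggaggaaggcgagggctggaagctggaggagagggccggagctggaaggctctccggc
Smad3 (chr9:63757995-63758244, minus strand): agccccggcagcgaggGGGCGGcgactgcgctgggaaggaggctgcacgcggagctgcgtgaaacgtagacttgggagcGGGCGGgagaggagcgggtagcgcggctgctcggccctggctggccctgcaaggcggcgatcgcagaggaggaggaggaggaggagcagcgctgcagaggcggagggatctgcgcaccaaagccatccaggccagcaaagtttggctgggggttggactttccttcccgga
The Tgfb1 window held 5 GC boxes, and those of Tgfbr1 and Smad3 held 2 each. In the Tgfbr2 window there was no GC box and 1 Smad half-site, and the other windows held 0 half-sites. Among all 32851 promoter windows of this length in the table, 32.7% held a GC box and 42.2% a Smad half-site. TGANTCA, the site of AP-1, was in none of the 4 windows and in 6.7% of all windows. These windows were rich in G and C, with 75.2% for Tgfb1, 74.8% for Tgfbr1, 69.2% for Smad3 and 58.4% for Tgfbr2, against a median of 52.4% over all windows. The table holds a further start for Tgfbr1, which is not shown.

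Array medians ranged over 4.76 to 4.93 log2, and Pearson's r between the 2 arrays of a group, taken over probe sets, was 0.991 to 0.994. On the first principal component CD169DTR/+ 2 Gy replicate 2 and WT 2 Gy replicate 1 stood apart (40.3 and 29.5, against -25.7 to 6.58 for the others). Kit, the stem cell factor receptor used in the sort, read 14.25 to 14.36 log2 on the 4 irradiated arrays, against 14.66 to 14.93 on the 4 others. Hlf, a transcription factor of stem cells, read 12.44 to 12.70 on the irradiated arrays, against 12.94 to 13.33 on the others. Ctnnal1, also listed as an LT-HSC marker, went the other way, with 7.76 to 8.36 on the irradiated arrays, against 7.26 to 7.66. Of 9 measured LT-HSC markers, 4 were lower and 1 higher at an unadjusted p under 0.05 for 2 Gy averaged over genotypes. Over all probe sets 9.23% had such a p, up or down, and 0 of the 9 markers passed the adjusted p. Of 10 measured monocyte and macrophage genes, Siglec1 (3.86 to 4.12) and Csf1r (4.12 to 4.84) lay near or below the array medians in all groups. Others lay above them, such as Lyz2 (13.51 to 14.00) and Cd68 (7.57 to 8.67). Depletion of macrophages could not be read from these sorted cells. All 10 members had a mean above the 40th percentile of the probe sets. Values of different probe sets are not comparable as levels, so each gene is compared with itself across groups.

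Of the 10 members, 0 passed an adjusted p of 0.05 in limma in any of 7 comparisons. Over all probe sets 0.0099% passed for 2 Gy in WT and 0.0099% for 2 Gy averaged over genotypes, and 0% in the other 5 comparisons. At an unadjusted p under 0.05, 2 members stood out for 2 Gy in WT (7.81% of all probe sets did), 1 for 2 Gy in CD169DTR/+ (6.77%), 3 for 2 Gy averaged over genotypes (9.23%), 1 for CD169DTR/+ against WT without irradiation (4.38%), 2 for CD169DTR/+ against WT after 2 Gy (7.57%), 2 for the genotypes averaged over irradiation (6.33%) and 2 for the interaction of irradiation with genotype (5.17%). These counts name 5 genes, namely Tgfb1, Tgfbr1, Tgfbr2, Smad3 and Smad4. The direction of each named difference below is that of the array values, and no difference of a member is a call.

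The groups separated by array in more members for 2 Gy in WT than in the other comparisons, as they did over all probe sets, and that contrast was not tested. For 2 Gy in WT, both irradiated arrays lay above both controls in 3 members (Tgfb1, Tgfbr1, Tgfbr3), where 31.4% of all probe sets did, and below them in 5 (Tgfbr2, Smad2, Smad3, Smad4, Smad7), where 13.2% did. In CD169DTR/+ mice the corresponding counts were 1 higher (Smad4, background 17.8%) and 3 lower (Tgfbr2, Smad3, Smad7, background 13.4%). For CD169DTR/+ against WT the counts were 2 higher (19.1%) and 3 lower (11.9%) without irradiation, and 1 higher (16%) and 2 lower (18.9%) after 2 Gy. The median difference of the members was -0.20 log2 for 2 Gy in WT and -0.09 in CD169DTR/+, against 0.075 and 0.035 over all probe sets. Rescaling moved the median of all probe sets for 2 Gy in WT by up to 0.115 log2, and with it the background split. With cyclic loess 4 members were higher (19.7% of all probe sets) and the same 5 lower (20.1%), and with median centring 3 were higher (13.8%) and 7 lower (25.6%).

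**Figure D1:**
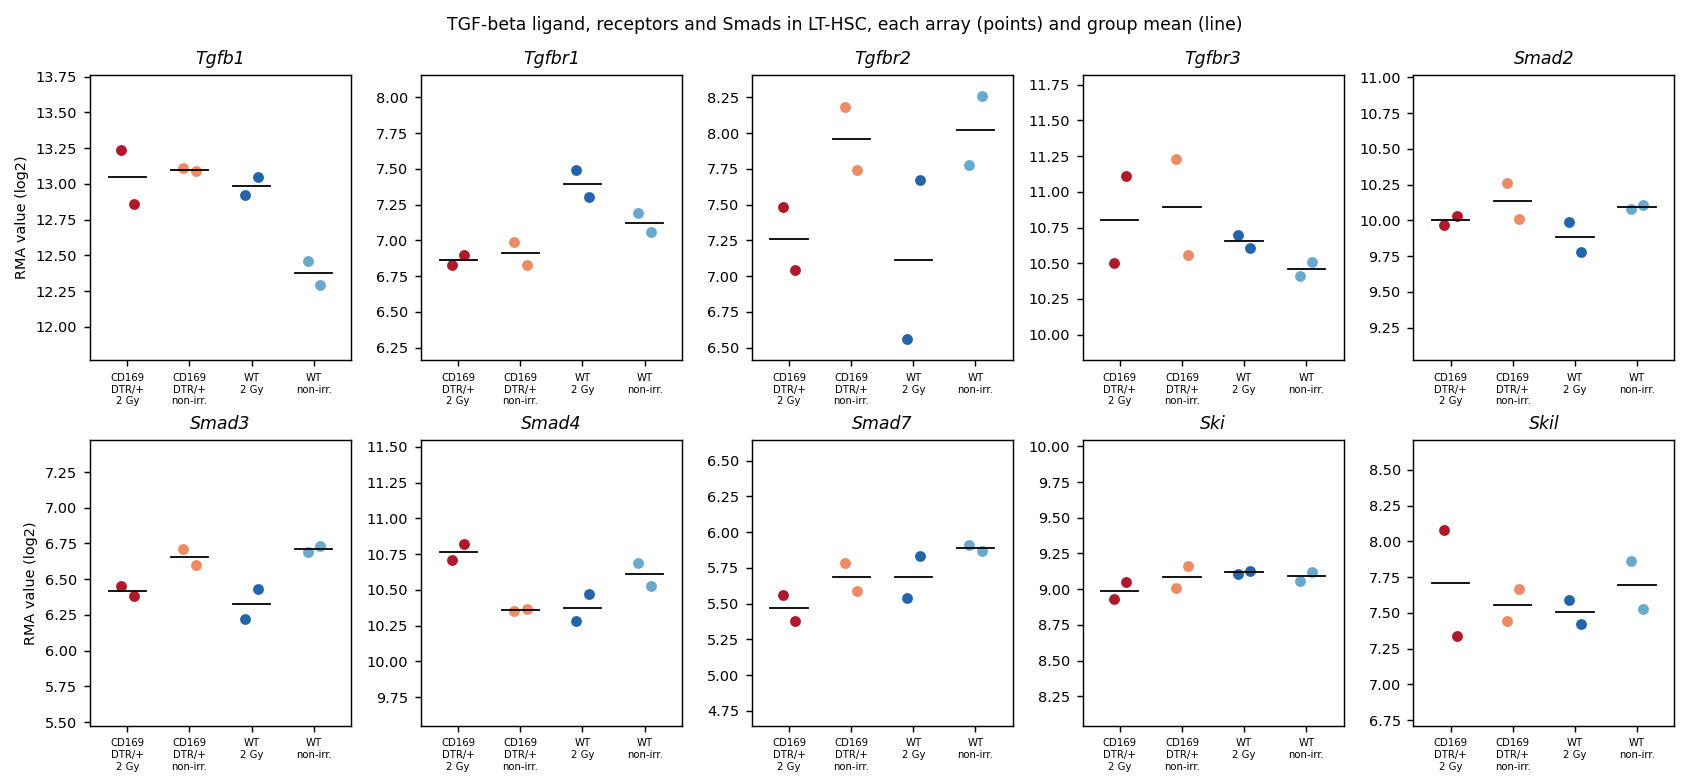
RMA values (log2, y axis, each panel spanning the same height) of the 10 genes in LT-HSC; points are the 2 arrays of a group and lines the group means, with groups along the x axis. Tgfb1 is lowest on both WT non-irradiated arrays, Smad3 and Tgfbr2 sit lower in both irradiated groups than in their controls, and Smad4 has the reverse order in the 2 genotypes.

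Tgfb1, the ligand, was lowest in WT non-irradiated LT-HSC and at similar values in the other 3 groups. It read 13.24 and 12.86 log2 in CD169DTR/+ 2 Gy cells, 13.11 and 13.09 in CD169DTR/+ non-irradiated cells, and 12.92 and 13.05 in WT 2 Gy cells, against 12.46 and 12.29 in WT non-irradiated cells. Both arrays of the last group thus lay below the 6 others, as they did for 6.28% of all probe sets. Without irradiation the CD169DTR/+ mean was 13.10 ± 0.01 and the WT mean 12.38 ± 0.12 (SD), a difference of 0.73 ± 0.16 log2 (SE), or 1.65-fold, with a 95% interval of 0.35 to 1.10 log2. Its unadjusted p was 0.00298, rank 93 among the 30294 probe sets, and the adjusted p in limma was 0.937. For 2 Gy in WT the difference was 0.61 ± 0.16 (1.53-fold, interval 0.23 to 0.99, unadjusted p = 0.00706, adjusted p = 0.505 in limma). In CD169DTR/+ cells 2 Gy gave -0.05 ± 0.16 with overlapping arrays and an interval of -0.43 to 0.33. The interaction, which is the difference between these responses, was -0.66 ± 0.22 (unadjusted p = 0.0231, adjusted p = 0.913 in limma). After 2 Gy the genotypes overlapped, with a difference of 0.07 (interval -0.31 to 0.44). In such bulk samples fewer cells of a type and less RNA per cell cannot be told apart.

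Markers of granulocytic cells had their lowest group mean in the same group, WT non-irradiated, but their highest in WT 2 Gy cells. The mean of 11 measured neutrophil and granulocyte-monocyte progenitor genes was 9.57 and 8.65 log2 in CD169DTR/+ 2 Gy, 8.99 and 9.54 in CD169DTR/+ non-irradiated and 9.68 and 10.39 in WT 2 Gy arrays, against 7.63 and 8.48 in WT non-irradiated arrays. All 11 had a higher mean in WT 2 Gy than in WT non-irradiated cells. For 8 of them the unadjusted p was under 0.05, as it was for 7.81% of all probe sets, up or down. All 11 were also higher in CD169DTR/+ than in WT cells without irradiation, 1 of them at that level (4.38% of all probe sets). In both comparisons 0 of these markers passed the adjusted p. Their part in the Tgfb1 values was not tested. Megakaryocytes are a known source of TGF-beta1 in marrow. The mean of 8 measured megakaryocyte genes was 9.51 and 9.55 in WT non-irradiated arrays, inside the range of 9.16 to 10.39 of the other arrays.

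**Figure D2:**
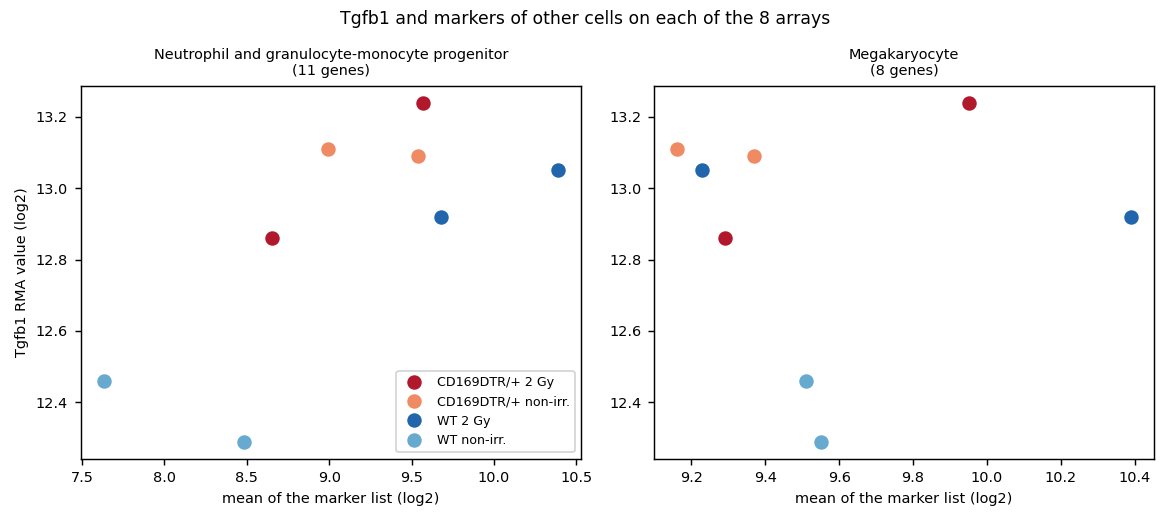
Tgfb1 (y axis, RMA value, log2) against the mean log2 value of the neutrophil and granulocyte-monocyte progenitor markers (11 genes, left) and of the megakaryocyte markers (8 genes, right); each point is 1 array. Both WT non-irradiated arrays are at the lower left on the left panel, at 7.63 and 8.48 along the x axis. On the right panel they are at the bottom, inside the x range of the other arrays, at 9.51 and 9.55.

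Among the receptors, Tgfbr1 separated the genotypes and Tgfbr2 the irradiated from the non-irradiated arrays. Tgfbr1, the type I receptor kinase, read 6.83 and 6.90 log2 in CD169DTR/+ 2 Gy cells, against 7.49 and 7.30 in WT 2 Gy cells. Without irradiation it read 6.99 and 6.83 in CD169DTR/+ cells, against 7.19 and 7.06 in WT cells. All 4 CD169DTR/+ arrays lay below all 4 WT arrays, as they did for 1.09% of all probe sets. The difference between genotypes was -0.53 ± 0.13 log2 after 2 Gy (SE, 1.44-fold lower, interval -0.84 to -0.22, unadjusted p = 0.0054, adjusted p = 0.619 in limma). It was -0.21 ± 0.13 without irradiation (interval -0.53 to 0.10) and -0.37 ± 0.09 averaged over irradiation (unadjusted p = 0.00556, adjusted p = 0.704 in limma). The interaction was -0.32 ± 0.18, with an interval of -0.76 to 0.13.

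Tgfbr2, the type II receptor that binds the ligand first, read 6.56 and 7.67 log2 in WT 2 Gy cells, against 7.78 and 8.26 in WT non-irradiated cells. In CD169DTR/+ mice it read 7.48 and 7.04 after 2 Gy, against 8.18 and 7.74 without irradiation. All 4 irradiated arrays lay below the 4 others, as they did for 1.74% of all probe sets. The gap was narrow, with 7.67 as the highest irradiated value and 7.74 as the lowest of the others. In both genotypes the irradiated arrays lay below their controls, by -0.91 ± 0.39 log2 in WT and -0.70 ± 0.39 in CD169DTR/+ (SE), and 9.41% of all probe sets were likewise apart with 1 sign, up or down, in both genotypes. The average was -0.80 ± 0.27, which is 1.74-fold lower, with an interval of -1.46 to -0.14 (unadjusted p = 0.0239, adjusted p = 0.49 in limma). This was the member with the widest spread within a group, with an SD of 0.78 in WT 2 Gy cells, set by the value of 6.56 on WT 2 Gy replicate 1. Without that array the average was -0.52, and without both 2 Gy arrays that stood apart it was -0.42. Both of those arrays also had the lowest means of 7 measured erythroid genes, at 8.26 and 7.75 log2, against 8.60 to 10.33 on the other arrays, and the part of this in the Tgfbr2 values was not tested. The genotypes did not differ beyond the spread, with 0.04 ± 0.27 averaged over irradiation.

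Tgfbr3 (betaglycan), the coreceptor that presents ligand to Tgfbr2, read 10.50 and 11.11 log2 in CD169DTR/+ 2 Gy cells, 11.23 and 10.56 in CD169DTR/+ non-irradiated cells and 10.70 and 10.61 in WT 2 Gy cells, against 10.41 and 10.51 in WT non-irradiated cells. Its CD169DTR/+ replicates lay far apart (SD 0.43 and 0.47) and its WT replicates close together (0.06 and 0.07). The difference between genotypes without irradiation was 0.44 ± 0.27 (SE, interval -0.22 to 1.09), and it was within the spread of the CD169DTR/+ arrays.

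**Figure D3:**
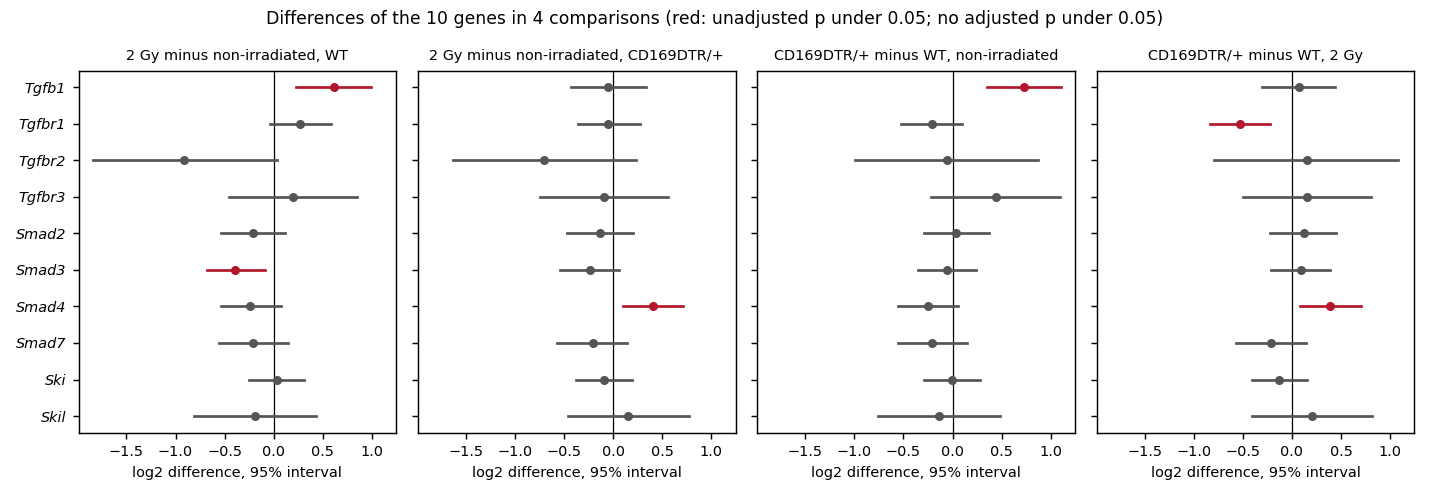
Log2 differences of the 10 genes (points) with 95% intervals of the limma fit (lines, x axis) in 4 comparisons; red marks an unadjusted p under 0.05. Intervals that leave out 0 are those of Tgfb1 and Smad3 for 2 Gy in WT, Smad4 for 2 Gy in CD169DTR/+, Tgfb1 for the genotypes without irradiation, and Tgfbr1 and Smad4 after 2 Gy.

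Of the Smads that the receptor phosphorylates, Smad3 was lower in both irradiated groups and Smad2 moved less. Smad3 read 6.22 and 6.43 log2 in WT 2 Gy cells, against 6.69 and 6.73 in WT non-irradiated cells. In CD169DTR/+ mice it read 6.45 and 6.38 after 2 Gy, against 6.71 and 6.60 without irradiation, so the 4 irradiated arrays all lay below the 4 others, as they did for 1.74% of all probe sets. The irradiated arrays were also the lower ones for the LT-HSC genes Kit and Hlf, but the higher ones for Ctnnal1, of the same list. Of the 9 measured LT-HSC markers, 5 were lower and 4 higher for 2 Gy averaged over genotypes. The part of these markers in the Smad3 and Tgfbr2 values was not tested. The difference was -0.39 ± 0.12 in WT (SE, 1.31-fold lower, unadjusted p = 0.0186, adjusted p = 0.566 in limma) and -0.24 ± 0.12 in CD169DTR/+ (interval -0.54 to 0.06). The average over genotypes, -0.31 ± 0.09 with an interval of -0.52 to -0.10, had the smallest p of the members in that comparison (unadjusted p = 0.0102, adjusted p = 0.426 in limma). The interaction was 0.15 ± 0.18. Smad2 read 9.99 and 9.78 in WT 2 Gy cells, against 10.08 and 10.11 in WT non-irradiated cells, a difference of -0.21 ± 0.14 (interval -0.54 to 0.12). In CD169DTR/+ cells its arrays overlapped, at 9.97 and 10.03 after 2 Gy, against 10.26 and 10.01 without irradiation.

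Smad4, the partner shared by the TGF-beta and BMP branches, had opposite orders in the genotypes. It read 10.71 and 10.82 log2 in CD169DTR/+ 2 Gy cells, against 10.35 and 10.37 in CD169DTR/+ non-irradiated cells. In WT mice it read 10.28 and 10.47 after 2 Gy, against 10.69 and 10.53 without irradiation. The groups did not overlap in either genotype, with opposite signs, as was the case for 4.44% of all probe sets. The difference was 0.41 ± 0.13 in CD169DTR/+ (SE, 1.32-fold, unadjusted p = 0.0169, adjusted p = 0.622 in limma) and -0.24 ± 0.13 in WT (interval -0.54 to 0.07). The interaction was 0.64 ± 0.18 with an interval of 0.21 to 1.07 (unadjusted p = 0.0103, rank 357 of 30294, adjusted p = 0.875 in limma). Between genotypes the difference was 0.39 ± 0.13 after 2 Gy (unadjusted p = 0.0198, adjusted p = 0.645 in limma) and -0.25 ± 0.13 without irradiation. Averaged over genotypes, 2 Gy gave 0.08 ± 0.09. Mast cell, basophil and eosinophil markers (8 measured genes) had means of 8.47 and 8.17 log2 in CD169DTR/+ 2 Gy arrays, against 6.64 and 7.30 in CD169DTR/+ non-irradiated arrays, and of 7.65 and 8.09 in WT 2 Gy arrays, against 8.33 and 7.15 in WT non-irradiated arrays. In CD169DTR/+ mice 7 of these 8 genes had a higher mean after 2 Gy and 1 a lower one. Single genes weighed on the list means, as Prg2 read 3.39 and 12.93 on the CD169DTR/+ non-irradiated arrays. The part of these markers in the Smad4 values was not tested.

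The inhibitors differed little. Smad7, which blocks the receptor and is itself a target of the pathway, was highest in WT non-irradiated cells and lowest in CD169DTR/+ 2 Gy cells. It read 5.56 and 5.38 log2 in CD169DTR/+ 2 Gy cells, 5.78 and 5.59 in CD169DTR/+ non-irradiated cells and 5.54 and 5.83 in WT 2 Gy cells, against 5.91 and 5.87 in WT non-irradiated cells. Its difference was -0.21 in each of the 4 comparisons of paired groups, with an SE of 0.15. Averaged over genotypes, 2 Gy gave -0.21 ± 0.11 (interval -0.46 to 0.04, unadjusted p = 0.0898, adjusted p = 0.583 in limma). Ski, a corepressor of the Smads, read 8.93 to 9.16 on the 8 arrays, the narrowest range of the members (0.23 log2). For 2 Gy its difference was 0.03 in WT (interval -0.25 to 0.31) and -0.09 in CD169DTR/+ (interval -0.38 to 0.19). Skil, its relative, read 8.08 and 7.34 in CD169DTR/+ 2 Gy cells, 7.44 and 7.67 in CD169DTR/+ non-irradiated cells and 7.59 and 7.42 in WT 2 Gy cells, against 7.86 and 7.53 in WT non-irradiated cells. Its CD169DTR/+ 2 Gy replicates spanned all its other values, and no comparison exceeded that spread.

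Other genes of the pathway were taken from 4 lists, of which 1 gene passed the adjusted p. Of 13 genes for other ligands and for the activation of latent TGF-beta, 0 passed in any comparison, and 4 had an unadjusted p under 0.05 for 2 Gy in WT, all of them lower (7.81% of all probe sets had such a p, up or down). Tgfb3, a second ligand, read 5.37 and 5.25 log2 in WT 2 Gy cells, against 5.81 and 6.77 in WT non-irradiated cells, a difference of -0.98 ± 0.33 (SE, adjusted p = 0.575 in limma). In CD169DTR/+ mice it had the opposite order, with 6.34 and 6.79 after 2 Gy, against 5.32 and 5.69 without irradiation (1.06 ± 0.33, adjusted p = 0.622 in limma). Its interaction was 2.04 ± 0.46 (unadjusted p = 0.00365, adjusted p = 0.839 in limma). Nrros, which tethers latent TGF-beta1 to the surface of myeloid cells, read 7.86 and 8.08 in WT 2 Gy cells, against 8.79 and 8.61 in WT non-irradiated cells. In CD169DTR/+ mice Nrros overlapped, with 8.79 and 8.40 after 2 Gy, against 8.52 and 9.19 without irradiation. Ltbp3, a latent TGF-beta binding protein, had a difference of -0.55 ± 0.21 for 2 Gy in WT (adjusted p = 0.612 in limma).

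Of 11 other receptors and coreceptors of the family, 0 passed, and 2 had an unadjusted p under 0.05 for 2 Gy in WT (7.81% of all probe sets did). Eng (endoglin, CD105), a coreceptor found on LT-HSC, read 10.15 and 9.79 log2 in WT 2 Gy cells, against 11.36 and 10.73 in WT non-irradiated cells. That is a difference of -1.07 ± 0.25 (SE, unadjusted p = 0.00441, adjusted p = 0.48 in limma). In CD169DTR/+ mice Eng overlapped, at 10.51 and 10.86 after 2 Gy, against 10.82 and 11.06 without irradiation. Acvr2a, an activin receptor, read 7.48 and 6.70 in WT 2 Gy cells, against 5.82 and 5.67 in WT non-irradiated cells (1.34 ± 0.46, adjusted p = 0.577 in limma). In CD169DTR/+ mice it read 6.74 and 5.33 after 2 Gy, against 5.57 and 5.80 without irradiation, and overlapped. Bmpr2, the type II receptor for BMPs, had -0.32 ± 0.13 for the genotypes averaged over irradiation (adjusted p = 0.787 in limma).

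Of 19 other Smads and Smad regulators 0 passed, and the unadjusted p was under 0.05 for 1 gene for 2 Gy in WT and 2 in CD169DTR/+, near the 7.81% and 6.77% of all probe sets. Smurf1, a ubiquitin ligase for Smads and receptors, read 6.32 and 6.60 log2 in CD169DTR/+ 2 Gy cells, against 6.20 and 5.79 in CD169DTR/+ non-irradiated cells. In WT mice it read 6.41 and 6.05 after 2 Gy, against 6.72 and 6.84 without irradiation, and its interaction was 1.01 ± 0.28 (SE, adjusted p = 0.874 in limma). Pmepa1, a target that feeds back on the Smads, had -0.49 ± 0.19 for 2 Gy in CD169DTR/+ (adjusted p = 0.704 in limma), and Tgif1, a corepressor, had -0.32 ± 0.14 there (adjusted p = 0.738 in limma). Smad5, of the BMP branch, had -0.30 ± 0.11 for 2 Gy averaged over genotypes (adjusted p = 0.507 in limma).

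Of 18 genes known as targets of TGF-beta, 16 were measured and 1 passed for 2 Gy in WT. That gene, Cdkn1a (p21), an inhibitor of cyclin-dependent kinases, is a target of p53 as well as of TGF-beta. Cdkn1a read 13.06 and 13.41 log2 in WT 2 Gy cells, against 7.86 and 8.39 in WT non-irradiated cells, and rose by 5.11 ± 0.24 (SE, adjusted p = 0.0073 in limma). In CD169DTR/+ mice Cdkn1a read 13.24 and 13.23 after 2 Gy, against 9.79 and 9.34 without irradiation, a difference of 3.67 ± 0.24 (adjusted p = 0.0622 in limma). Averaged over genotypes it rose by 4.39 ± 0.17 (adjusted p = 0.00205 in limma), and the irradiated means were 13.23 in both genotypes. It also read higher in CD169DTR/+ than in WT cells without irradiation, at 9.79 and 9.34 against 7.86 and 8.39, by 1.44 ± 0.24 (adjusted p = 0.936 in limma). Of the other 15 measured targets, Tgfbi, an extracellular matrix protein, had 1.02 ± 0.38 for 2 Gy in WT (adjusted p = 0.6 in limma). Bhlhe40, a transcription factor, read 4.25 and 4.32 in CD169DTR/+ 2 Gy cells, against 5.04 and 5.00 in CD169DTR/+ non-irradiated cells (-0.73 ± 0.20, adjusted p = 0.621 in limma). Klf10, an early response gene of TGF-beta, had -0.59 ± 0.20 for 2 Gy averaged over genotypes (adjusted p = 0.48 in limma). Median differences of the target list were 0.06 log2 for 2 Gy in WT and -0.04 in CD169DTR/+, against 0.075 and 0.035 over all probe sets. The list takes no account of the direction in which TGF-beta moves each gene, so these medians do not measure the output of the pathway.

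**Figure D4:**
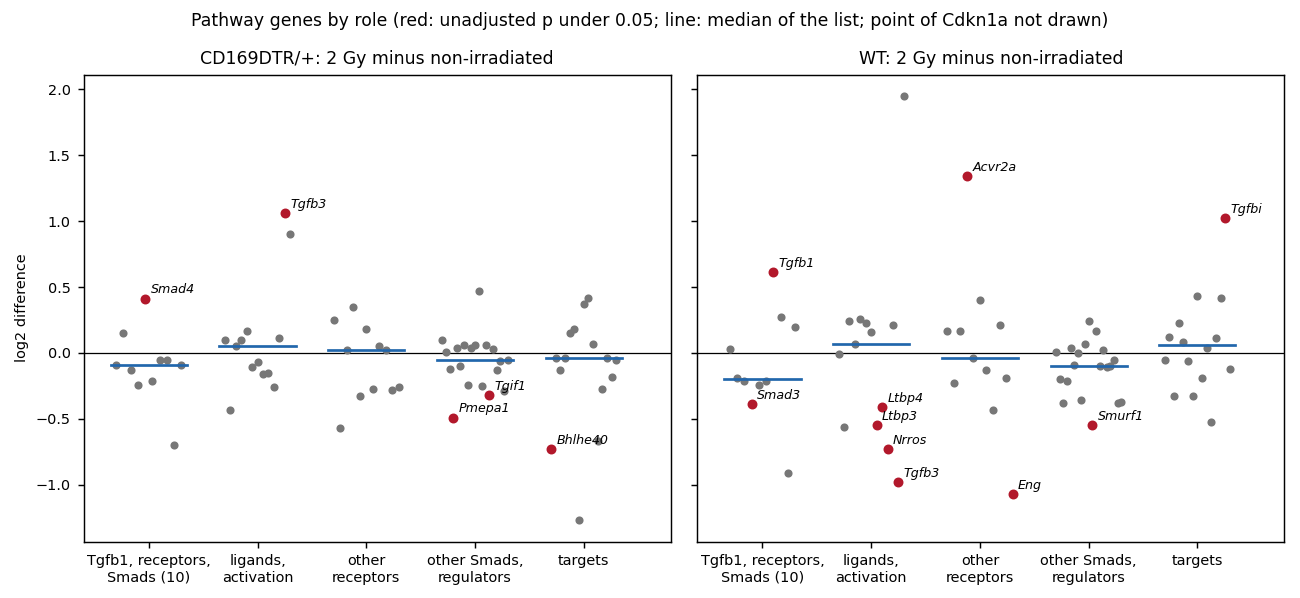
Log2 differences (y axis) of 2 Gy against non-irradiated LT-HSC for each gene, by role along the x axis, in CD169DTR/+ (left) and WT (right) mice; blue lines are list medians and red points have an unadjusted p under 0.05. Tgfb3 is at -0.98 in WT and 1.06 in CD169DTR/+, and the point of Cdkn1a, at 5.11 in WT and 3.67 in CD169DTR/+, is outside the axis and not drawn.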

How the data were processed

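Biotin-labelled cDNA was prepared with an Affymetrix GeneChip kit, per the labels' protocols. The authors deposited 1 log2 value for each probe set on each array. The submitters' processing notes name RMA, a method that condenses the probes of a probe set to 1 value on each array. The base of the logarithm is not stated in the table and was taken as 2, the convention of RMA. The version of RMA is not given in the sources used here. Of 40161 probe sets, 30294 carried 1 symbol, 2145 several and 7722 none. Through Entrez IDs 22546 were matched to RefSeq (GRCm38.p6), which updated 827 symbols.

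A model with 4 group means was fitted to the 30294 probe sets with limma 3.58.1 (lmFit, eBayes) in R 4.3.3, with residual and prior degrees of freedom of 4 and 2.59. The residual SD had a median of 0.182 log2. Tests were two-sided, with Benjamini-Hochberg adjustment within each of 7 comparisons. No filter, scaling or pseudocount was added. The fit was tested on simulated data. The number of arrays limits precision, and since the number of mice per array is not given, p-values measure the spread between these samples.

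The members, lists and comparisons were chosen with earlier results of these data known. The members were always named. From the other lists, genes past an adjusted p of 0.05 were named, and up to 3 per list and comparison with the smallest unadjusted p under 0.05, of which the text gives a choice. Listed genes with no value given were, where measured, fitted and counted in their lists, but they are not described here. Alternatives were an intensity trend, a dim filter at the 40th percentile, all probe sets, cyclic loess, median centring, array weights, a replicate block, only the groups compared, an unadjusted threshold, each of 8 arrays left out, and both outlying 2 Gy arrays left out.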

Additional observations from a re-analysis of the deposited data

Results flagged for a closer look

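Irradiation separated the arrays in both genotypes with opposite signs for 5 of the 69 measured genes of the pathway (7.25%), where 4.44% of all probe sets did. Smad4 had an interaction of 0.64 ± 0.18 log2 (SE, unadjusted p = 0.0103, adjusted p = 0.875 in limma), with both CD169DTR/+ 2 Gy arrays above their controls and both WT 2 Gy arrays below theirs. Tgfb3 had 2.04 ± 0.46 (unadjusted p = 0.00365, adjusted p = 0.839 in limma), in the same directions. Smurf1 had 1.01 ± 0.28 (unadjusted p = 0.00999, adjusted p = 0.874 in limma), also in the same directions. Ltbp1, a latent TGF-beta binding protein, had -0.34 ± 0.18 (unadjusted p = 0.104, adjusted p = 0.957 in limma), with the signs the other way round. Strap, an inhibitor of receptor signalling, had 0.17 ± 0.15 (unadjusted p = 0.31, adjusted p = 0.96 in limma). Ltbp1 and Strap lie outside the rule for named genes and are given for this pattern of arrays. None of these differences between genotypes passed the adjusted p.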

How the results depend on the processing

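The count of members past the adjusted p was 0 in all 7 comparisons under every alternative run that kept the adjusted threshold, including the replicate block. In this balanced design the block cannot change a difference of group means (0.61 log2 for Tgfb1 for 2 Gy in WT in both fits), so that equality says nothing about stability. Same-numbered samples deviated together little, with correlations of -0.09 to 0.16 between groups, and the numbers were not taken as pairs. The labels do not state whether the numbers mark the experiments, and these correlations cannot settle it. At an unadjusted p under 0.05 the counts were 2 for 2 Gy in WT, 1 in CD169DTR/+, 3 averaged, 1 for the genotypes without irradiation, 2 after 2 Gy, 2 averaged and 2 for the interaction. The 13 differences of members with an unadjusted p under 0.05 kept their sign under every alternative run. Many of these alternatives leave the group means as they are. Leaving out 1 array also cannot reverse a difference between 2 groups that do not overlap. Kept signs therefore say little about stability. Differences of the other pathway genes were not run under the alternatives. With 1 array left out, Tgfbr2 for 2 Gy averaged over genotypes ranged from -1.08 to -0.52, Tgfb1 for 2 Gy averaged from 0.18 to 0.38, and the Tgfb1 interaction from -0.85 to -0.47. The counts of members whose groups do not overlap, under settings chosen after seeing the data, changed in all 4 comparisons, by over 1.5 times in 3 of them. For 2 Gy in WT they were 4 higher (45% of all probe sets) and 6 lower (25.8%) without both outlying 2 Gy arrays. For 2 Gy in CD169DTR/+ there were 3 higher and 6 lower without both outlying 2 Gy arrays, where 33.1% and 27.8% of all probe sets were, since 1 array against 2 separates more readily. For CD169DTR/+ against WT without irradiation 1 was higher with cyclic loess (16.8% of all probe sets). After 2 Gy 2 were higher (24.9%) and 1 lower (11.3%) with median centring. The cause of these last changes was not tested.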

Other observations

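Thbs1 (thrombospondin 1), a platelet protein known to activate latent TGF-beta, was picked after its values were seen. It read 9.78 log2 on WT 2 Gy replicate 1 and 5.81 on replicate 2, against 5.02 and 6.68 in WT non-irradiated cells. The same array had the highest mean of the megakaryocyte markers (10.39), against 9.23 on its partner. Most of that gap came from 2 of the 8 markers, Ppbp (10.77, against 6.45 on the partner) and Treml1 (13.81, against 11.22). Pf4 read 16.24, against 16.32 on the partner, and Itga2b (10.31) and Mrvi1 (4.84) were equal on both arrays. It also had the lowest Tgfbr2 value (6.56). In CD169DTR/+ mice Thbs1 read 6.95 and 6.40 after 2 Gy, against 5.83 and 5.72 without irradiation.

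Id1, a gene that BMP signalling induces through Smad1 and Smad5, was also picked after its values were seen. It read 6.93 and 7.04 log2 in CD169DTR/+ 2 Gy cells, 7.11 and 6.11 in CD169DTR/+ non-irradiated cells and 6.50 and 6.54 in WT 2 Gy cells, against 5.96 and 6.23 in WT non-irradiated cells. Id3, from the same family, stayed between 3.64 and 4.07 on all 8 arrays, below the 40th percentile of each (4.27 to 4.47).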
